A study of Mus musculus with 19 samples.

Results

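The subject is the difference in the muscle transcriptome of young mice between a high-fat diet and the diet of lean mice. It was read from 9 of the 19 sequenced libraries: 5 of young mice labelled obese, whose feed drew 60% of its kcal from fat, and 4 of young mice labelled lean, with 12% from fat. The young mice were 6 months old. The remaining 10 libraries, 5 aged lean and 5 aged obese on the same diets at 20 to 21 months, entered the same model and serve for the comparison of the diet effect between ages. All mice were male and of a strain the labels spell C657Bl/6J, with no transgene or deletion named. Age and diet are the only differences between the groups that the labels give. Of 14707 genes listed, the 13367 with a mean of at least 10 over the 19 libraries were tested.

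Per the sample labels the tissue was gastrocnemius, the mixed-fibre calf muscle, and reads were single-end. The series' design text names tibialis anterior, paired-end reads and another age range instead, and the sample labels were followed. Whether every library stems from a different mouse is not stated in the sources used here. The p-values reflect only how the 19 libraries vary within their groups, aged ones included, and this variation may be technical. How long the mice ate the diet is not given in the sources used here.

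Skeletal muscle burns both glucose and fatty acids, and a rise in the supply of fat shifts the mixture towards fat. Fatty acids that enter a fibre bind the nuclear receptors of the PPAR family, which pair with RXR receptors on DNA and raise the genes that take up, carry and oxidise fat. Pdk4 is such a gene and encodes a kinase that switches off pyruvate dehydrogenase and so keeps glucose carbon out of the mitochondrion. Around the fibres lies connective tissue made by fibroblast-like cells: collagen I and III fibrils, a collagen IV basement membrane, and, at the ends of the muscle, tendon.

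The promoters of 4 PPAR target genes are shown first, picked as the rising members with the lowest p. Each window runs from 250 bases before to 50 bases after the RefSeq start, on the strand of the gene, on mouse build GRCm38.p6. The files were made on mm39, and the windows are not positions in that build. Capitals mark the hexamer AGGTCA, the half-site of nuclear receptors, on either strand. Cpt1a is at chr19:3323051-3323350 (plus strand), Pdk4 at chr6:5496229-5496528 (minus strand), Acot2 at chr12:83987611-83987910 and Acot1 at chr12:84009252-84009551 (both plus strand).
Cpt1a: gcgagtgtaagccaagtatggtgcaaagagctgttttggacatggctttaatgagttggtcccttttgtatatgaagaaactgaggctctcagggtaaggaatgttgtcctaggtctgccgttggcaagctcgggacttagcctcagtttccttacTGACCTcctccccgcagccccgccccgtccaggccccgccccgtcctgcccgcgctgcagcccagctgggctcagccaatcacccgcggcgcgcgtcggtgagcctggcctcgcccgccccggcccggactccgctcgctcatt
Pdk4: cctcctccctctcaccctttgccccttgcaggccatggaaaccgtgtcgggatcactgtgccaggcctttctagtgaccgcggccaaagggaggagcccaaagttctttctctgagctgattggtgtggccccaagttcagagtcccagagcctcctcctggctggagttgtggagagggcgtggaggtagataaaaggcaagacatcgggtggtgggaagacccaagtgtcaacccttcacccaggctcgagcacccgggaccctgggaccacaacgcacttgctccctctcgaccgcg
Acot2: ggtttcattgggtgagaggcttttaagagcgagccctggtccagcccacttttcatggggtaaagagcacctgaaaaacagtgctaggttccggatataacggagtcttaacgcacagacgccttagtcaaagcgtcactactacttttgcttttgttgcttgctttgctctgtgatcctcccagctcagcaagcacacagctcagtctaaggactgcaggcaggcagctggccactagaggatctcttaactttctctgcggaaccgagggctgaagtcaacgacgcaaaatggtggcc
Acot1: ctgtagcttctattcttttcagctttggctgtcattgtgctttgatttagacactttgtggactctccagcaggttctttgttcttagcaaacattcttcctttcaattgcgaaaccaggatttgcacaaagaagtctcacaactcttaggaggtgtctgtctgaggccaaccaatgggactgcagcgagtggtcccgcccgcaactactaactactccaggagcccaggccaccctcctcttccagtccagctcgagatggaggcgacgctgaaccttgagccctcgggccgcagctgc
Only the Cpt1a window among these 4 holds the half-site, 94 bases before the start and on the strand opposite to the gene. Of 32851 windows of this length, 16.3% hold AGGTCA on either strand. The full repeat AGGTCANAGGTCA is in 0.0396% of them and in none of the 4. Of the 15 PPAR target genes that rose, described below, 12 have an entry and 5 of these hold the half-site in at least 1 window, and of the 14 that did not pass 12 have an entry and 2 hold it. These gene counts cannot be set against the 16.3%, which is a share of windows, because a gene may have more than 1 window. A match describes these letters in this window and no more.

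The 9 young libraries were of like depth, at an estimated 15.066 to 16.971 M reads, and 1 unit of the authors' normalised values stands for about 1 read. Skeletal muscle markers were present in every library, with a mean log2 value of 16.9 to 17.2 over 14 genes. None of the 14 passed with diet (limma, 4 at an unadjusted p under 0.05), and their median log2 change was -0.06. Gene by gene, young lean 1 correlated slightly better with the obese libraries (mean r across genes 0.9727) than with the other lean ones (0.972). Young obese 2 likewise leaned to the lean libraries (0.9757 against 0.9727). Young obese 3 had the lowest mean correlation with its own group of all 19 libraries, 0.9689. The tendon score, the mean log2 value of 6 tendon genes (Tnmd, Scx, Mkx, Cilp2, Chad and Kera), was 5.99, 6.825, 7.171 and 6.452 in the lean libraries and 8.425, 7.668, 7.8, 9.132 and 8.786 in the obese ones. These scores did not overlap, so diet and the amount of tendon RNA in a sample cannot be told apart in these libraries. The clock score, in which the mean log2 value of 6 genes of the opposite phase is taken from that of Clock, Arntl and Npas2, ran from -3.195 to -1.324 in the lean and from -2.123 to -0.484 in the obese libraries, with overlap.

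Between the diets 1475 of the 13367 genes differed in young muscle, which is 11% of those tested. Of all tested genes 762 (5.7%) rose and 713 (5.33%) fell on the high-fat diet, at an adjusted p under 0.05 in limma's test. Most changes were small: 217 genes (1.62%) passed and changed by more than 2-fold, 190 upward and 27 downward, and the median size among all changed genes was 0.48 on the log2 scale. After quantile normalisation 640 rose and 903 fell, with the median of all genes at -0.03 in place of 0.01, so that the split between rises and falls depends on the scaling. The count rested on single libraries too. Leaving out young lean 1 gave 2695 and leaving out young obese 2 gave 2196. It fell to 673 when young lean 2 was left out, to 786 for young lean 3, to 868 for young lean 4, to 955 for young obese 1, to 843 for young obese 4 and to 854 for young obese 5. In each of these fits and in that without young obese 3, 474 of the 1475 genes passed, 248 rising and 226 falling. Without young lean 1 and young obese 2 together 3396 genes passed, and with the young groups fitted alone 182 did. The main test pools the spread of each gene over the young and aged groups. With the young groups alone the SE of Col1a1 was 0.69 in place of 0.55, and that of Pdk4 was 0.18 in place of 0.28. With the tendon score as a covariate 0 genes passed (limma, 1351 at an unadjusted p under 0.05), and with the clock score 137 did. Values with the tendon score are therefore given for the main groups of genes. Counts in the gene lists below are to be read beside the 5.7% of all tested genes that rose and the 5.33% that fell. A gene named below as having risen or fallen passed in each of the 9 fits without 1 library unless its sentence says otherwise. This does not extend to the fit of the young groups alone, where 45 of the 95 named genes that passed did so.

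**Figure D1:**
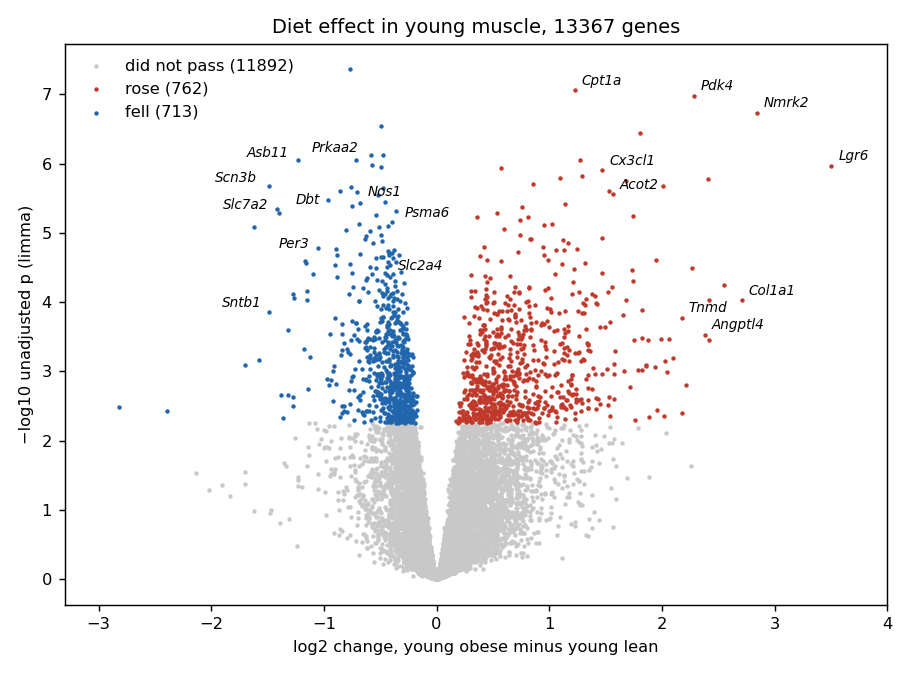
Log2 change of 13367 genes between 5 young obese and 4 young lean libraries (x axis) against −log10 of the unadjusted p from limma (y axis), 1 point per gene. Coloured points are the 762 genes that rose and the 713 that fell at an adjusted p under 0.05, and the labelled genes are among the largest changes named in the text, with Nmrk2 at 2.84 and Sntb1 at -1.49.

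Genes of fat use rose. Of 29 tested PPAR target genes 15 rose, 0 fell and 14 did not pass, against 5.7% and 5.33% of all genes. Their median log2 change was 0.52, beside 0.01 for all genes. Pdk4, the kinase that restrains glucose oxidation, stood at 4149, 3804, 3722 and 4503 normalised units in the lean libraries and at 29723, 19926, 21664, 15369 and 14706 in the obese ones. The lowest obese library was thus more than 3 times the highest lean one, and the fitted change was 4.86-fold (log2 2.28, SE 0.28, adjusted p = 0.000468). Cpt1a, the carnitine transferase that lets long-chain fatty acids into the mitochondrion, was at 240.4, 177, 207 and 157 against 500.3, 402, 549.9, 385 and 445. It rose 2.34-fold (log2 1.22, SE 0.15, adjusted p = 0.000468) with no overlap between groups. Cpt1b, the muscle form of the same enzyme, at 4969 to 7342 units in lean and 5848 to 8976 in obese muscle, did not pass (log2 0.31, SE 0.13, adjusted p = 0.12). Angptl4, a secreted inhibitor of lipoprotein lipase, was the most variable of the group: 123, 28.2, 57.1 and 53.5 in lean and 398, 173, 784, 213 and 218 in obese muscle (log2 2.38, SE 0.54, adjusted p = 0.0111). Every obese library nevertheless lay above every lean one. Ucp3, a carrier of the inner mitochondrial membrane linked to fat oxidation, stood at 3348, 1582, 1281 and 1034 against 5424, 3551, 6553, 3870.4 and 3207. Here young lean 1 exceeded the lowest obese library, and the change was 2.67-fold (log2 1.42, SE 0.29, adjusted p = 0.00693). The count of rising PPAR targets was 9 without young lean 2, and 9 of the 15 passed in all 9 fits.

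Within the list of fatty acid uptake and activation, the thioesterases that release fatty acids from coenzyme A had the largest changes. Acot2, the mitochondrial form, was at 584, 277, 257 and 255 units in lean muscle and at 1189, 1186, 605, 931 and 977 in obese muscle, a 2.96-fold rise (log2 1.56, SE 0.24, adjusted p = 0.00126). Acot1, its cytosolic neighbour, rose 3.87-fold (log2 1.95, SE 0.35, adjusted p = 0.00365). The sequences of these 2 genes are nearly the same, and reads may have been split between them by the authors' counting, so the division between them is uncertain. Of 23 genes of uptake and activation 7 rose and 0 fell. The lists of fat use share members, so their counts are not separate. Acot1 and Acot2 are among the PPAR targets too, and Cpt1a is in both the PPAR and the beta-oxidation list. Cd36, the main fatty acid transporter of the fibre membrane, was at 0.66 (SE 0.16, adjusted p = 0.0164) and did not pass without young lean 2 (adjusted p = 0.0608) or young lean 4 (0.0511). This list's count went to 12 when young lean 1 was left out, to 2 for young lean 2 or young lean 4, to 3 for young lean 3, young obese 1 or young obese 5, and to 4 for young obese 4.

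In the mitochondrial beta-oxidation list 6 of 27 genes rose and 1 fell, with a median of 0.31. The falls were 0 when young lean 2, young lean 3, young lean 4, young obese 3, young obese 4 or young obese 5 was left out. Mlycd, which degrades the malonyl-CoA that inhibits Cpt1 enzymes, rose by 0.52 (SE 0.12). Acads, the short-chain acyl-CoA dehydrogenase, rose by 0.54 (SE 0.12), and Ech1, an isomerase for unsaturated fatty acids, by 0.76 (SE 0.17). For Ech1 the lean libraries spanned 2345 to 3108 and the obese ones 3153 to 6278, with young obese 3 the lowest at 3153, just above the lean range. Young obese 3 was the lowest obese library for Acads and Mlycd too. Without it 10 members rose, and without young lean 1 14 did. The central enzyme Hadha, an alpha subunit of the trifunctional protein, was at 0.32 (SE 0.15, adjusted p = 0.176). In peroxisomes, Cat, the catalase that removes the hydrogen peroxide of their oxidation, rose 1.68-fold (log2 0.74, SE 0.13, adjusted p = 0.00251). Its values were 2171, 1561, 2071 and 1846 against 3642, 3065, 2586, 3314 and 3397, without overlap.

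Coat and lipase genes of the lipid droplet, the fibre's fat store, included 5 of 26 that rose. The 2 that fell did not hold, with 0 falls when young lean 3, young lean 4 or young obese 5 was left out, and the median of the list was 0.29. Plin2, the coat protein found on droplets in most cells, stood at 587, 407, 446 and 283 against 721, 584, 807, 629 and 719 (log2 0.72, SE 0.17, adjusted p = 0.0118). Plin5, the coat protein that ties droplets to mitochondria in oxidative tissue, was at 1.35 (SE 0.32, adjusted p = 0.0128) and missed the threshold without young lean 2 (adjusted p = 0.0547). Mgll, the monoacylglycerol lipase, rose 1.81-fold (log2 0.85, SE 0.20). A pair of carriers of the mitochondrial inner membrane rose with them, Slc25a34 by 1.30 (SE 0.27) and the glutamate carrier Slc25a22 by 1.14 (SE 0.20). The count of rising droplet genes was 3 without young lean 2 or young lean 3. Adipocyte markers show the other source of fat genes in a muscle sample. Of 17 tested 13 were above 0, with a median of 0.48 beside 0.52 for the PPAR targets. Only Cidea, a droplet protein of fat cells, passed, but 6 did once young lean 1 was left out and 2 once young obese 4 was. Their mean log2 value was 8.34, 6.94, 7.05 and 8.23 in the lean and 8.98, 8.32, 7.80, 7.58 and 8.34 in the obese libraries, with overlap. The adipocyte hormone Adipoq lay at 96 to 470.1 units in lean and 148 to 649.6 in obese libraries (log2 0.66, SE 0.48, adjusted p = 0.393). The part of fat cells in the rise of the fat genes was not tested. With the tendon score in the model Pdk4 was at 2.41, Cpt1a at 1.33, Angptl4 at 2.61, Ucp3 at 2.00, Acot2 at 1.67 and Plin2 at 0.77, whereas Cat was at 0.59 and Ech1 at 0.43. The median of the PPAR targets was 0.43 in that model. There 11 of them were at an unadjusted p under 0.05 (limma), against 22 without the score. For uptake and activation the median went from 0.32 to 0.145, with 11 and 3 genes at that p. For beta-oxidation it went from 0.31 to 0.17 (16 and 6 genes), and for lipid droplets from 0.29 to 0.13 (14 and 7). With the clock score the median of the PPAR targets was 0.36, and that of the adipocyte markers was 0.07. In the model with the clock score Pdk4 was at 1.80, Cpt1a at 1.02 and Acot2 at 1.15, and these 3 passed. Angptl4 was then at 1.33 (adjusted p = 0.188), Ucp3 at 0.80 (adjusted p = 0.117), Plin2 at 0.43 (adjusted p = 0.191) and Ech1 at 0.53 (adjusted p = 0.168), and none of these 4 passed.

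**Figure D2:**
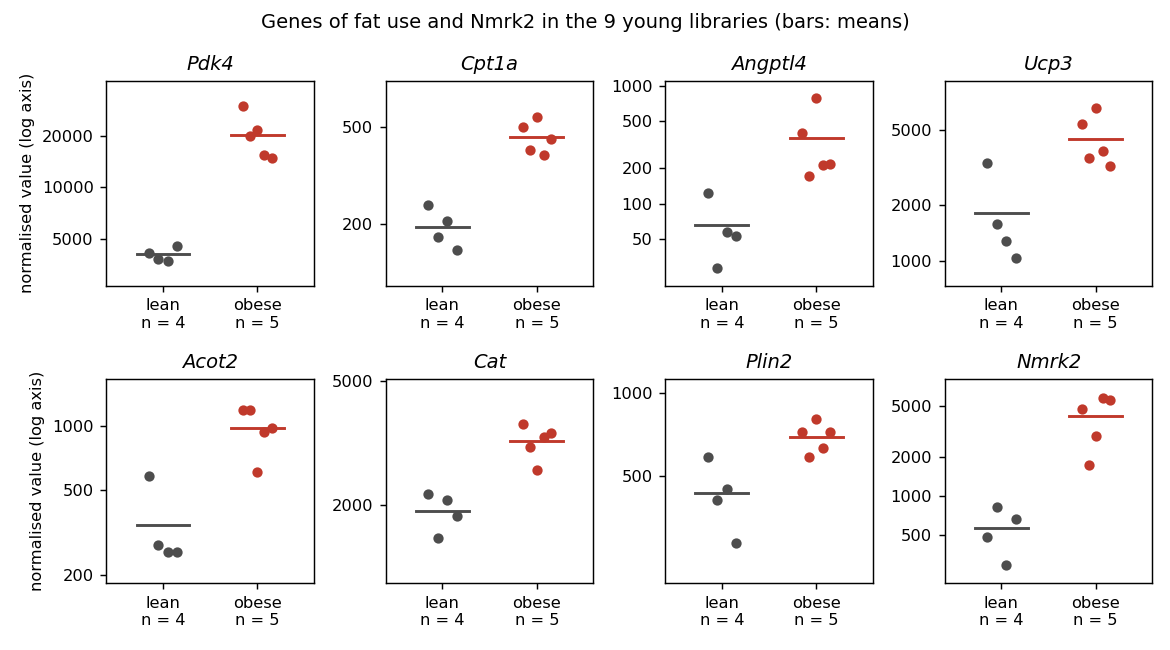
Normalised values (log axis) of Pdk4, Cpt1a, Angptl4, Ucp3, Acot2, Cat, Plin2 and Nmrk2 in each of the 4 young lean and 5 young obese libraries, 1 point per library, with bars at the group means. The obese points lie above the lean ones in all panels but those of Ucp3 and Plin2, where young lean 1, at 3348 and 587 units, reaches into the obese range.

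Among the regulators of this programme the receptor genes themselves did not rise. Ppard, the PPAR form that prevails in muscle, fell from 949, 1226, 1357 and 1482 to 798, 913, 859, 985 and 971 units (log2 -0.45, SE 0.11, adjusted p = 0.012). Only young lean 1 overlapped with the obese range. Ppargc1a, the coactivator of mitochondrial biogenesis, was at 0.10 (SE 0.09, adjusted p = 0.501). Esrra, a nuclear receptor that works with it, rose by 0.52 (SE 0.12, adjusted p = 0.0127). Prkaa2, the catalytic subunit of the energy sensor AMPK that muscle uses most, fell by 0.58 (SE 0.08, adjusted p = 0.00103): its lean libraries held 6413 to 8135 units and its obese ones 4622 to 5989. Of 38 nuclear-encoded subunits of respiratory complex I 1 passed, and of 41 subunits of complexes II to V 2 did, all upward. Their medians were 0.15 and 0.14, with 33 and 37 of them above 0. These counts were 9 and 11 without young lean 1, and both were 0 when young lean 2, young lean 3, young lean 4, young obese 1, young obese 4 or young obese 5 was left out. No subunit passed in all 9 fits. The tendon score brought their medians to 0.10 and 0.08, and Prkaa2 to -0.50, Ppard to -0.47 and Esrra to 0.47.

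The gene with the largest rise by the naming rule was Nmrk2, a nicotinamide riboside kinase found mainly in muscle, where it makes a precursor of NAD. It stood at 479.8, 823, 295 and 669 units in the lean and at 4761, 1753, 2943, 5814 and 5526 in the obese libraries. The lowest obese value, that of young obese 2, was more than 2 times the highest lean value, and the change was 7.17-fold (log2 2.84, SE 0.36, adjusted p = 0.000619). Its change was 1.93 with the tendon score. Of 26 NAD genes only 1 other passed, Sirt4, a mitochondrial deacylase (log2 0.31, SE 0.10, adjusted p = 0.0489). Sirt4 missed the threshold in 7 of the 9 fits without 1 library, the exceptions being those without young lean 2 and young obese 3. Nampt, the rate-limiting enzyme of the main salvage route, was at -0.17 (SE 0.07, adjusted p = 0.0987). Its obese values of 2936 to 3187 overlapped the lean ones of 3096 to 4034.

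Part of the genes of glucose uptake and glycogen were lower. Slc2a4, which encodes the insulin-regulated glucose transporter GLUT4, was at 12619, 12518, 11815 and 11810.1 units in lean muscle and at 9061, 9203, 8886, 9764 and 9444 in obese muscle. Both groups were tight, with no overlap, and the fall was 0.39 (log2 -0.39, SE 0.07, adjusted p = 0.00335). Ugp2, which makes the UDP-glucose that glycogen synthase uses, fell from 18201, 14987, 17194 and 17779 to 11633, 11883, 10758, 11260.5 and 11642 (log2 -0.57, SE 0.08, adjusted p = 0.00103). In all 7 of 20 glycogen genes fell and 1 rose, with a median of -0.21. Ppp1r3a, the subunit that anchors phosphatase 1 to glycogen in muscle, fell by 0.51 (SE 0.12). Gyg, the glycogenin that primes each particle, was at -0.51 (SE 0.12, adjusted p = 0.0146) but missed the threshold without young lean 3 (adjusted p = 0.0568) or young lean 4 (0.0537). The list's count of falls was 2 without young lean 3 and 4 without young lean 4 or young obese 5. The count of rises was 0 in 7 of the 9 fits without 1 library. Of 21 glycolytic genes 0 rose and 2 fell, with a median of 0.09, and this split turned on single libraries. Leaving out young lean 1 or young obese 2 gave 5 rises each, and 0 fell when young lean 2, young lean 3, young lean 4, young obese 1 or young obese 5 was left out.

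Of 35 insulin signalling genes 2 rose and 2 fell, close to the 5.7% and 5.33% of all tested genes. Single libraries moved these counts. The falls were 9 with young lean 1 left out, 6 with young obese 2 left out and 1 in each of the other 7 fits, while the rises were 0 with young lean 4 and 1 with young obese 4 left out. Grb14, an adaptor that inhibits the insulin receptor, stood at 365, 204, 185 and 151 against 726, 367, 328, 589 and 616, a 2.34-fold change (log2 1.23, SE 0.30, adjusted p = 0.0145) that missed the threshold without young lean 4 (adjusted p = 0.0511). Irs2, a docking protein of the receptor, did not pass (log2 0.75, SE 0.26, adjusted p = 0.0632): young obese 1 stood at 2379 and the other obese libraries at 666 to 1138. Slc2a4 was at -0.36, Ugp2 at -0.46 and Grb14 at 0.57 with the tendon score.

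Genes of branched-chain amino acid breakdown were lower in part. Of 23 genes of this pathway 8 fell and 0 rose, with a median of -0.21. Dbt, the core subunit of the dehydrogenase complex that commits these amino acids to oxidation, was at 631, 777, 1226 and 859 units in lean and at 476, 479, 358, 413 and 461 in obese muscle. It fell to 0.513 of the lean level (log2 -0.96, SE 0.15, adjusted p = 0.00144), and the groups were apart. Acadsb, the dehydrogenase of the isoleucine branch, fell by 0.66 (SE 0.13), Ivd, that of the leucine branch, by 0.48 (SE 0.10), and Mmut, the last enzyme of the valine and isoleucine route, by 0.51 (SE 0.09). Prodh, which starts proline breakdown, fell from 118, 166, 208 and 310.1 to 58.7, 111, 97.1, 76.4 and 88.3 (log2 -1.15, SE 0.23, adjusted p = 0.00616). With the tendon score Dbt was at -0.98 and Prodh at -0.93. The count of falls was 4 without young lean 3 or young lean 4.

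Every tested subunit of the constitutive proteasome was at a negative change. Of 31 genes 19 fell, 12 did not pass and 0 rose, with a median of -0.32 and a range from -0.63 to -0.07. Psma6, an alpha subunit of the core particle, was at 1547, 1582, 1683 and 1773 units in lean and at 1282, 1304, 1238, 1324 and 1259 in obese muscle (log2 -0.36, SE 0.06, adjusted p = 0.00172). Psmb7, the subunit with trypsin-like activity, went from 2401, 2395, 2450.1 and 2662 to 1969, 2104, 1875, 1903 and 2102 (log2 -0.32, SE 0.06, adjusted p = 0.00456). Neither gene had an obese library within the lean range. Psmd2, a scaffold of the regulatory particle, fell by 0.63 (SE 0.15, adjusted p = 0.0123), but its lean libraries spread from 3300.4 in young lean 1 to 6625 in young lean 4 while the obese ones held to 3121 to 3703. The list's mean log2 value was 10.5, 10.7, 10.9 and 10.9 in the lean libraries and 10.4, 10.5, 10.4, 10.4 and 10.4 in the obese ones. The lean libraries varied more among themselves than the obese ones did. The number of falling subunits was 9 without young lean 3 and 10 without young lean 4, and 9 passed in all 9 fits. With the tendon score the median was -0.29 and with the clock score -0.28.

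The inducible subunits and antigen-presentation genes did not follow. All 18 tested were above 0, but only Psme1 and Tapbp passed, and neither did so in all 9 fits. Tapbp, the tapasin that loads peptides, passed only without young lean 1, young lean 3 or young obese 2. Psme1, an activator subunit induced by interferon, missed the threshold without young lean 3 (adjusted p = 0.0665) or young lean 4 (0.0777). Among 61 translation factors 14 fell and 0 rose, with a median of -0.11. Eif5, which triggers joining of the ribosomal subunits, went from 4235, 4386, 4323 and 3994 to 3319, 3799, 3366, 3094 and 2728 (log2 -0.38, SE 0.09, adjusted p = 0.0105). Eif3j1 and its near-identical copy Eif3j2 fell by 0.59 and 0.55, and how reads were divided between them is uncertain. This count moved with most libraries, from 5 without young lean 2 to 22 without young lean 1, with 7 to 9 in the fits without young lean 3, young lean 4, young obese 1, young obese 3, young obese 4 and young obese 5. The median of the translation factors was -0.08 with the tendon score, where Eif5 was at -0.30. Of 48 heat shock genes and chaperones 7 fell and 1 rose. The falls were 2 when young lean 2 or young lean 3 was left out and 4 for young obese 3, with 1 kept in all 9 fits, and the rises were 5 for young lean 1. Hsp90ab1, the constitutive cytosolic HSP90, was at 32085, 29319, 31439 and 32157 against 25273, 23765, 23511, 24664 and 24229.7, without overlap (log2 -0.36, SE 0.08, adjusted p = 0.00945), and at -0.21 with the tendon score. In that model 2 of the 48 were at an unadjusted p under 0.05, against 17 without the score.

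The muscle ubiquitin ligase Fbxo32, the atrogin of wasting muscle, varied widely within the lean group. It stood at 1520.2, 6262, 12725 and 23107 in lean and at 6995, 9583, 7197, 5670.4 and 7083 in obese libraries, and its change of -0.01 (SE 0.48, adjusted p = 0.989) was far below this spread. Young lean 1 was the lowest lean library and young lean 4 the highest for Fbxo32, as they were for Psmd2. Asb11, an adaptor of a ubiquitin ligase of muscle, was the only 1 of 20 such Asb and Kelch adaptors to pass. It fell from 2332, 3809, 4418 and 5237 to 1757, 1962, 1432, 1534 and 1434 units (log2 -1.23, SE 0.17, adjusted p = 0.00103), and was at -1.16 with the tendon score.

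Matrix genes were among the largest rises, and tendon markers rose with them. Of 10 fibrillar collagen genes 7 rose and 0 fell, with a median of 1.50. Col1a1, the alpha 1 chain of collagen I, stood at 3704, 1179, 7989 and 949 units in lean and at 10607, 4707, 34080.5, 26155 and 21225 in obese muscle. Young obese 2, at 4707, lay below young lean 3, at 7989, and the change was 6.53-fold (log2 2.71, SE 0.55, adjusted p = 0.00673). Col1a2, its partner chain, followed the same libraries with a change of 4.83-fold (log2 2.27, SE 0.42, adjusted p = 0.00407). Col3a1, which forms the finer fibrils inside muscle, was at 1.79 (SE 0.59, adjusted p = 0.0552) and did not pass. In Col3a1 young obese 3 alone reached 31191, and the other obese libraries, at 3036 to 12097, overlapped the lean ones at 954 to 7770.0. Col5a3, a chain of collagen V, had the clearest separation, from 505, 379.7, 411 and 256 to 945, 832, 2136, 904 and 1001 (log2 1.53, SE 0.23, adjusted p = 0.00124). The count of rising fibrillar collagens was 4 without young lean 2, young lean 4 or young obese 4. With the young groups fitted alone Col5a3 passed (limma, adjusted p = 0.0295), while Col1a1 (0.0712) and Col1a2 (0.0596) did not.

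Collagens of the fibre surface rose as well. Col4a1, a chain of the basement membrane network, went from 3619, 1743, 1942 and 2007 to 4608, 3052, 5353, 4519 and 4295 (log2 0.95, SE 0.17, adjusted p = 0.00317). Young obese 2, the lowest obese library, lay below young lean 1, the highest lean one. Col4a2 rose by 0.85 (SE 0.13) and Nid2, a nidogen that links collagen IV to laminin, by 0.69 (SE 0.15). In all 12 of 24 basement membrane genes rose and 1 fell, with a median of 0.60. The falls were 0 without young lean 2, young lean 4 or young obese 4. Col6a1 and Col6a2, chains of the collagen VI that bridges basement membrane and fibrils, rose by 1.32 (SE 0.27) and 1.52 (SE 0.30). With the young groups fitted alone Col4a2 passed (limma, adjusted p = 0.0333). Col4a1 (0.0574), Nid2 (0.0685), Col6a1 (0.0723) and Col6a2 (0.0658) did not pass there.

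Of 39 small proteoglycans and matrix glycoproteins 19 rose, and all 39 were above 0, with a median of 0.90. Sparc, a collagen-binding glycoprotein, rose 2.51-fold (log2 1.33, SE 0.27, adjusted p = 0.0067), and Ogn, a small proteoglycan, 1.62-fold (log2 0.69, SE 0.14, adjusted p = 0.00616). Leaving out 1 library moved this count to 5 (young lean 2), 11 (young lean 4), 12 (young obese 4 or young obese 5) or 29 (young obese 2). Among 28 genes of collagen processing 12 rose. Loxl2, which crosslinks collagen IV and other collagens, was at 355, 209, 286 and 163 against 622, 473, 1443, 971 and 862, all obese libraries above all lean ones (log2 1.74, SE 0.28, adjusted p = 0.00178). Pcolce, an enhancer of procollagen cleavage, rose by 1.08 (SE 0.23). The count was 7 without young lean 2 and 21 without young obese 2. With the young groups fitted alone Loxl2 (limma, adjusted p = 0.0293) and Ogn (0.0355) passed, and Sparc (0.07) and Pcolce (0.0775) did not. Of 36 proteases and inhibitors of the matrix 7 rose, among them Timp2, an inhibitor of metalloproteinases, by 0.69 (SE 0.14), and Serpinf1, a secreted serpin, by 1.28 (SE 0.18). That count became 12 (young lean 1 left out), 4 (young lean 2 or young obese 4) or 14 (young obese 2). Ccn1, a matrix signalling protein, rose by 1.12 (SE 0.19), and Tgfb3, a TGF-beta ligand, by 0.35 (SE 0.07), in a list of 45 in which 11 rose and 1 fell. Its rises were 6 with young lean 2 and 17 with young obese 2 left out, and its falls 5 with young lean 1 left out, 2 with young obese 2 and 0 in the other 7 fits.

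Of the 13 tendon markers tested 9 rose and 0 fell, with a median of 1.58. Tnmd, the tenomodulin that defines tendon cells, stood at 56.4, 89.7, 159 and 90.4 in lean and at 453, 212, 291, 862 and 547 in obese libraries (log2 2.18, SE 0.47, adjusted p = 0.00869). Chad, a cartilage and tendon matrix protein, rose 4.09-fold (log2 2.03, SE 0.51), Cilp2 5.34-fold (log2 2.42, SE 0.49) and Fmod, which guides fibril growth in tendon, 2.99-fold (log2 1.58, SE 0.38). No obese library lay within the lean range for these 4 genes. The count was 4 without young lean 2 and 5 without young obese 4. Fibro-adipogenic progenitors are stromal cells that lie between the fibres, and of their 16 markers 7 rose and 0 fell, with a median of 0.44. The rises were 3 with young lean 2 and 4 with young obese 3 left out, and 3 markers passed in all 9 fits. Their median was 0.36 with the tendon score, and 3 were at an unadjusted p under 0.05, against 11 without the score. Their mean log2 value ran from 9.16 to 9.63 in the lean and from 9.61 to 10.29 in the obese libraries. In a bulk sample more cells of a type and more RNA per cell cannot be told apart.

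The matrix changes are given here with the tendon score in the model. Whether genes differed in how far they moved with it was not tested. The genes that make up the score lose their mean change there by construction. Among them Tnmd was then at 0.05, Cilp2 at 0.14 and Chad at -0.08. Fmod, a tendon marker that is not part of the score, was at -0.08 as well. The median of the proteoglycans went from 0.90 to 0.31. Their largest change without the score, 2.42, is that of Cilp2, so part of this drop is by construction too. Col1a1 stood at 1.54 (SE 0.76), Col1a2 at 1.29 (SE 0.57), Loxl2 at 1.19 and Sparc at 0.85. Col4a1 was at 0.95 (SE 0.26), Col4a2 at 0.74, Nid2 at 0.70, Col5a3 at 1.46 (SE 0.36), Ccn1 at 0.95, Ogn at 0.22 and Timp2 at 0.27. None of these passed an adjusted threshold in that model.

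**Figure D3:**
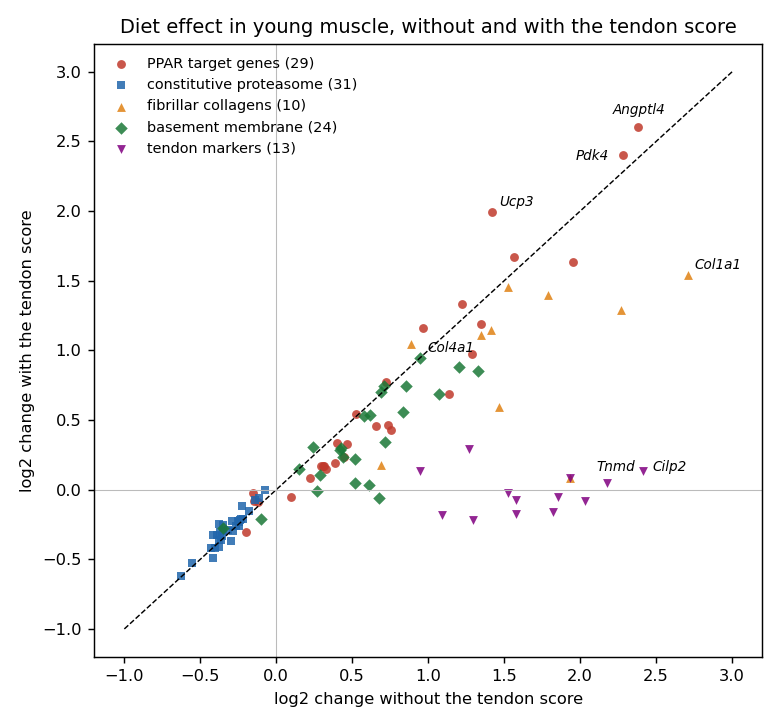
Log2 change with diet in young muscle without (x axis) and with (y axis) the tendon score in the model, 1 point per tested member of 5 gene lists, with the line of equality. PPAR targets and proteasome subunits lie near the line, fibrillar collagens partly below it, and tendon markers near 0 on the y axis, with medians of 1.58 without the score and -0.05 with it.

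Genes of the fibre membrane changed in both directions. Scn3b, an auxiliary subunit of voltage-gated sodium channels, stood at 101, 99.1, 79 and 73.9 units in lean and at 30.9, 36.1, 28.7, 20.6 and 40.6 in obese muscle. No obese library came near the lean range, and the gene fell to 0.358 of the lean level (log2 -1.48, SE 0.22, adjusted p = 0.0012). Kcnc4, a fast potassium channel, fell by 0.75 (SE 0.12) and Ano5, an anoctamin of muscle membrane repair, by 0.54 (SE 0.09). In this list of 33 ion channel genes 3 rose and 4 fell, beside 5.7% and 5.33% of all tested genes.

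The dystrophin complex, which ties the fibre's cytoskeleton to its basement membrane, had 6 of 24 genes falling and 2 rising. The 6 falls held in all 9 fits, while the rises were 1 in each fit but those without young lean 1 or young obese 2. Dmd itself, which encodes dystrophin, went from 1884, 2184, 2291 and 2595 to 1776, 1749, 1616, 1528 and 1496 (log2 -0.45, SE 0.10, adjusted p = 0.0114). Nos1, the neuronal nitric oxide synthase anchored there, went from 2959, 3329, 3342 and 3253 to 1701, 2574, 1690.5, 2147 and 2058 (log2 -0.68, SE 0.11, adjusted p = 0.00151). For both genes the groups were apart. Dtna, a dystrobrevin, fell by 0.71 (SE 0.11), the syntrophin Sntb1 by 1.49 (SE 0.31), and Dag1, the dystroglycan precursor, by 0.26 (SE 0.05). In the model with the tendon score Nos1 was at -0.73, Dmd at -0.39 and Dtna at -0.40.

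At the neuromuscular junction, Chrne, the adult subunit of the acetylcholine receptor, rose from 182, 174, 99.9 and 127 to 221, 228, 288, 262 and 239 (log2 0.79, SE 0.16, adjusted p = 0.0069). Rapsn, which clusters the receptor, fell by 0.38 (SE 0.09). The tendon score left Chrne at 1.01, Rapsn at -0.52 and Myoz3, described below, at 0.79. Of 20 genes of the denervation response 1 rose, with 2 rising without young lean 1 and 0 when young lean 2, young lean 4, young obese 1, young obese 4 or young obese 5 was left out. Of 21 embryonic myosins and myogenic regulators 0 passed (limma, 5 at an unadjusted p under 0.05). Of 17 slow fibre genes 0 passed (limma, 0 at an unadjusted p under 0.05), and of 17 fast fibre genes 4 rose, of which only Myoz3, a calsarcin of fast fibres, passed in all 9 fits (log2 0.69, SE 0.14, adjusted p = 0.00583). The fast list's count was 1 without young lean 3, young lean 4, young obese 3, young obese 4 or young obese 5. Myh7, the slow myosin, lay at 4892 to 9343 in lean and 3428 to 9046 in obese libraries (log2 -0.35, SE 0.33, adjusted p = 0.512).

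Other large falls concerned amino acids and signalling. Slc7a2, a transporter of arginine and lysine, stood at 2118, 2139, 2151 and 3691 in lean and at 994, 933, 1279, 816 and 675 in obese muscle (log2 -1.41, SE 0.23, adjusted p = 0.00163). All lean libraries were above all obese ones, and with the tendon score the change was -0.69. In the same list Amd1, which makes decarboxylated S-adenosylmethionine for polyamine synthesis, rose from 12562, 27613, 13221 and 15044 to 26963, 39426, 35525, 36282 and 38878 (log2 1.11, SE 0.20, adjusted p = 0.00379). Young lean 2 alone reached into the obese range, just above young obese 1. Its near-identical copy Amd2 was at 0.98, and reads may be split between the copies. Gamt, the last enzyme of creatine synthesis, rose 1.93-fold (log2 0.95, SE 0.16, adjusted p = 0.00211). Of these 29 genes of polyamines, arginine and amino acid transport 5 rose and 2 fell, with 3 rises when young lean 3 or young obese 1 was left out. Ctxn3, a small membrane protein, fell from 741, 1571, 1778 and 2245 to 521, 674, 588, 493 and 526 (log2 -1.40, SE 0.22, adjusted p = 0.00173).

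Clock genes changed in both directions. Of 19 tested, 3 rose and 3 fell. Per3, a repressor of the clock, stood at 453, 639, 746 and 718 in lean and at 231, 336, 266, 364 and 340.2 in obese libraries, without overlap (log2 -1.05, SE 0.18, adjusted p = 0.00321). Rora, a nuclear receptor that drives the activator Arntl, fell by 0.76 (SE 0.18). Arntl was at 0.77 (SE 0.18, adjusted p = 0.0135) and missed the threshold without young lean 2 (adjusted p = 0.0506). The rising count was 1 without young lean 3 or young lean 4, and the falling count 6 without young lean 1. The time of day at which muscles were taken is not given in the sources used here. Its part in these changes was not tested. Per3 was at -1.08, Rora at -0.70 and Arntl at 0.84 with the tendon score.

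Single genes of vessels and immune signals rose. Of 23 genes of blood vessel growth 4 rose and 0 fell, with 7 rising without young lean 1 and 1 when young lean 2, young lean 3 or young lean 4 was left out. The 1 that passed in all 9 fits was Angpt1, a ligand that steadies vessels, which rose by 0.61 (SE 0.14, adjusted p = 0.0115) and was at 0.47 with the tendon score. Of 14 endothelial markers 2 rose, with 4 rising without young lean 1 or young obese 2, 1 without young lean 2 and 0 when young lean 3, young lean 4, young obese 1, young obese 4 or young obese 5 was left out. Of 26 cytokines and chemokines 3 rose and 1 fell. The rises were 5 for young lean 1 left out and 1 for young lean 2, young lean 4, young obese 3, young obese 4 or young obese 5, and the falls were 0 for young lean 2, young lean 3, young lean 4, young obese 1, young obese 4 or young obese 5. Cx3cl1, a membrane-bound chemokine, stood at 77.9, 52.2, 35.2 and 42.8 in lean and at 197, 101, 131, 139 and 145 in obese muscle, a 2.76-fold rise (log2 1.47, SE 0.21, adjusted p = 0.00103) without overlap, and was at 1.71 with the tendon score. None of 16 macrophage markers passed (limma, 2 at an unadjusted p under 0.05), with a median of 0.51. Their mean log2 value was 8.861 in young obese 3 and 6.141 to 7.665 in the other young libraries. None of 10 neutrophil markers passed either (2 at an unadjusted p under 0.05), with a median of -1.43. Of 33 interferon-stimulated genes 1 rose, Ifi27 (log2 0.53, SE 0.12, adjusted p = 0.0104), and 29 were above 0. Without young lean 1 5 of them rose. Among 14 markers of dividing cells 0 passed (limma, 1 at an unadjusted p under 0.05). Here too young obese 3 stood apart, at a mean log2 value of 6.697 against 3.979 to 5.191 in the other young libraries.

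**Figure D4:**
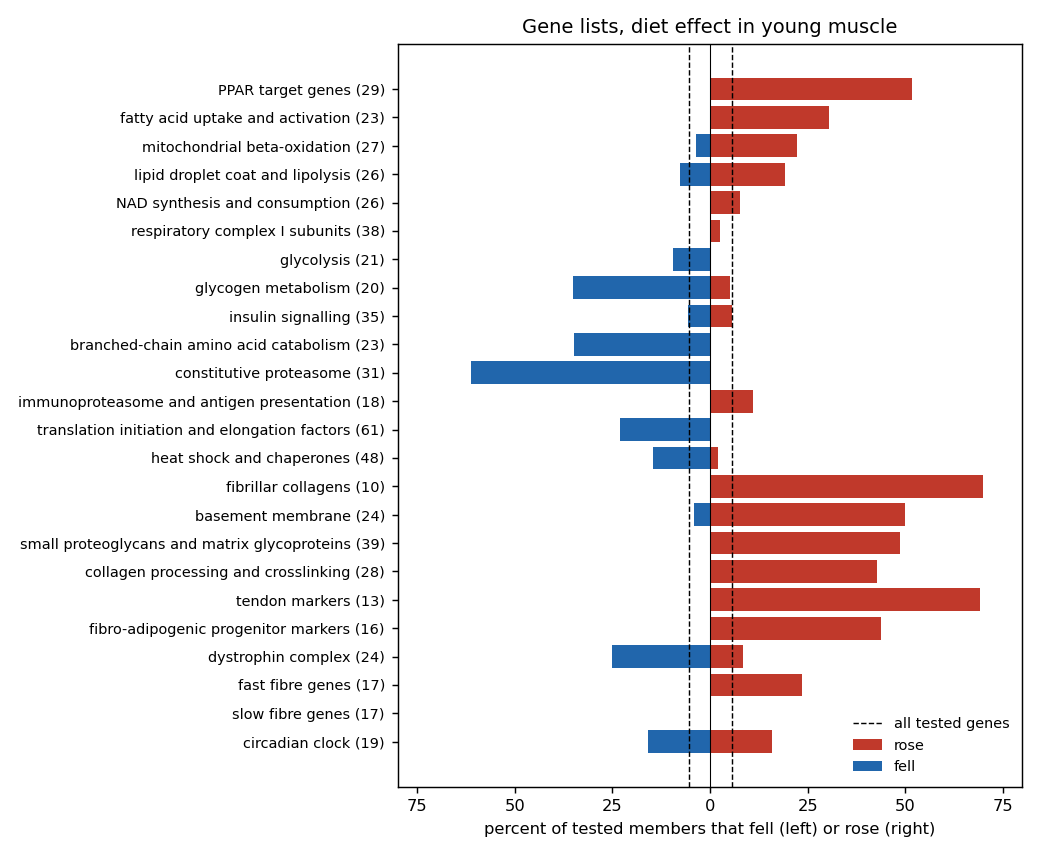
Percent of the tested members of 24 gene lists that rose (right) or fell (left) with diet in young muscle at an adjusted p under 0.05, with the number of tested members after each name. Dashed lines mark the 5.7% of all tested genes that rose and the 5.33% that fell.

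Between the same diets far fewer genes differed in aged muscle, 39 of 13367 (0.292%). The difference of the diet effects, tested as the interaction of diet and age, passed for 398 genes (2.98%). For 226 genes (1.69%) the change was above that in aged muscle and for 172 (1.29%) below it. Of the 1475 genes changed in young muscle, 314 also passed this test. Only 11 genes passed in both ages, 7 of them in the same direction, which is 0.746% of the genes changed in young and 28.2% of those changed in aged muscle. The interaction count was 1724 without young lean 1, 1312 without young obese 2, and 112 to 224 without any other single young library. It was 0 with the tendon score (limma, 1534 at an unadjusted p under 0.05) and 5 with the clock score. The clock score ran from -2.303 to -0.699 in the aged lean and from -2.947 to -1.742 in the aged obese libraries. In the young it ran from -3.195 to -1.324 in the lean and from -2.123 to -0.484 in the obese libraries. The part of the clock in the differences between ages was not tested.

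Collagen I showed the largest difference in favour of the young. The change of Col1a2 was 2.27 in young and -0.81 in aged muscle (difference 3.08, adjusted p = 0.013), and that of Col1a1 was 2.71 and -0.77 (difference 3.48, adjusted p = 0.0227). The median of the fibrillar collagens was 1.50 in young and -0.47 in aged muscle. Col5a3 (difference 1.92, adjusted p = 0.00774) and Loxl2 (2.14, adjusted p = 0.0119) differed likewise, as did Col4a1 (1.03, adjusted p = 0.0247). Of the 13 tendon markers 2 passed this test, among them Cilp2 (difference 2.68, adjusted p = 0.0414). Cilp2 missed the threshold in 5 of the 9 fits without 1 library. Tnmd did not pass (difference 2.11, adjusted p = 0.0722). The median of the tendon markers was 1.58 in young and -0.09 in aged muscle. The tendon score ran from 5.58 to 7.22 in the aged lean and from 5.43 to 7.13 in the aged obese libraries. The part of tendon in the collagen differences between ages was not tested. Without young lean 2 the difference missed the threshold for Col1a1 (adjusted p = 0.0551) and Col4a1 (0.0591), and it passed in all 9 fits for Col1a2, Col5a3 and Loxl2.

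Of the 29 PPAR targets 2 passed this test, Pdk4 and Cpt1a. Nmrk2 changed by 2.84 in young and 0.22 in aged muscle (difference 2.62, adjusted p = 0.0131), Pdk4 by 2.28 and 0.57 (difference 1.71, adjusted p = 0.0252) and Cpt1a by 1.22 and 0.26 (difference 0.96, adjusted p = 0.02). Without young lean 2 the difference missed the threshold for Pdk4 (adjusted p = 0.0546) and Cpt1a (0.0501). Angptl4 (adjusted p = 0.233), Ucp3 (0.0749), Acot2 (0.122) and Plin2 (0.198) did not pass. For Acot1, Cat and Ech1 the differences of 0.50, 0.19 and 0.04 did not pass, likewise, with adjusted p of 0.569, 0.539 and 0.946. Slc2a4 fell by 0.39 at both ages and passed in both. Proteasome subunits had a median of -0.32 in young and 0.05 in aged muscle, and 5 of the 31 passed the test of the difference.

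Genes whose change lay lower in young than in aged muscle, each passing in all 9 fits, included Ugp2 (difference -0.57, adjusted p = 0.0181), Prkaa2 (-0.64, adjusted p = 0.011), Kcnc4 (-1.12, adjusted p = 0.00475), Slc7a2 (-1.41, adjusted p = 0.0227), Nos1 (-0.82, adjusted p = 0.0113) and Dmd (-0.69, adjusted p = 0.02). For Per3 the aged change was 0.45, opposite in sign to that in young muscle (difference -1.50, adjusted p = 0.00859), and for Arntl it was -0.45 against 0.77 (difference 1.22, adjusted p = 0.02). The largest difference below 0 was that of Myh7, which did not pass in young muscle and was at 1.80 in the aged (difference -2.15, adjusted p = 0.02). Among the 11 genes changed at both ages, chosen after their values were seen, Lgr6, a receptor of R-spondins, had the largest change. It stood at 7.79, 3.13, 2.86 and 1.94 units in young lean and at 73.6, 82, 19.8, 42.3 and 60.9 in young obese muscle, and changed by 3.50 (SE 0.50) in young and 2.47 in aged muscle. Rab15, a small GTPase of vesicle traffic, changed by 2.01 and 1.35, while Prkcd, a protein kinase C, moved in opposite directions, by 0.83 and -1.04. Prkcd missed the threshold in young muscle without young lean 2 (adjusted p = 0.0549) or young lean 3 (0.0537).

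**Figure D5:**
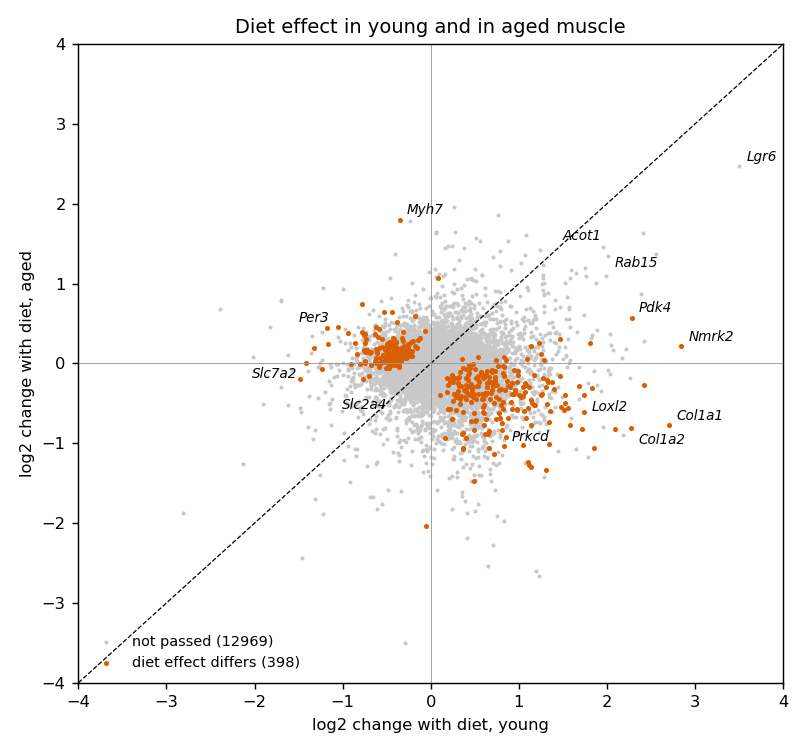
Log2 change with the high-fat diet in young muscle (x axis) against that in aged muscle (y axis), 1 point per tested gene. Coloured points are the 398 genes whose diet effect differs between the ages at an adjusted p under 0.05, and labels mark genes named in the text, such as Col1a1 at 2.71 and -0.77.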

How the data were processed

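RNA was sequenced from mouse muscle in 19 libraries of 4 groups, taken from the sample titles. The deposited signal is a table of gene values that the authors had normalised, per the labels. The submitters' processing notes list STAR 2.78a, DESeq2, Partek and the build mm39 without stating what each did. The annotation, the counting rule and the use of strand are likewise not given in the sources used here. Genes that share or overlap sequence may thus have exchanged reads.

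Low values gave the worth of 1 read in each library, 0.903 to 1.0928 units. Only 85.16% to 86.32% of low values were whole reads within 0.02 of a read, under the 95% needed, so no count test was run. The planned limma test was used: log2(value + 1), group means for the 4 groups of all 19 libraries, 15 residual and 4.37 prior degrees of freedom (limma 3.58.1 in R 4.3.3), with Benjamini-Hochberg adjustment over 13367 genes. Genes whose mean lay under 10, 1340 in all, did not enter the test. Fold changes are on the log2(value + 1) scale, which understates those of low genes. An adjusted p under 0.05 counted as changed. The code was tested on simulated data, and tables and figures were made in Python 3.11.15.

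The members and the 66 gene lists were chosen with earlier results of these data known, and lists are described by counts and medians. The genes named come from the 15 largest rises and falls with a mean of at least 50, up to 4 members of each list with the lowest p, 34 genes always considered, and the 8 largest differences between ages in each direction; the text prints part of these, and some genes the rule names are not reported here. Alternatives comprised 13 other settings and 9 fits without 1 young library. Promoter windows are from RefSeq (GRCm38.p6).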

Additional observations from a re-analysis of the deposited data

Results flagged for a closer look

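In 13 of 208 checks of a named gene within a young group, 1 library stood apart from the others by Dixon's criterion, which chance alone meets in about 1 of 20 groups. Young lean 1 was high for Acot2 (584 units, the other lean libraries 255 to 277) and Esrra (1690 against 1080 to 1150), and low for Ppp1r3a (5710 against 8060 to 8440) and Rora (1890 against 3640 to 4150). Young lean 4 was high for Prkcd (235 against 203 to 208) and Slc7a2 (3690 against 2120 to 2150). Young obese 1 was low for Amd1 (27000 against 35500 to 39400). Young obese 2 was high for Ppp1r3a (7000 against 4690 to 5190), Prkaa2 (5990 against 4620 to 4960), Psmd2 (3700 against 3120 to 3250) and Gbp10 (889 against 165 to 216). Young obese 3 was high for Col5a3 (2140 against 832 to 1000) and Prkcd (659 against 281 to 350).

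For 46 named genes the diet effect differed between young and aged muscle at an adjusted p under 0.05 (limma's interaction test). Values are the log2 change in young minus that in aged muscle. For 21 genes the difference passed in each of the 9 fits without 1 young library. Above 0 these were Col1a2 (3.08), Nmrk2 (2.62), Loxl2 (2.14), Col6a2 (2.02), Col5a3 (1.92), Prkcd (1.87), Col6a1 (1.82), Serpinf1 (1.46), Amd1 (1.40), Arntl (1.22) and Ogn (1.03). Below 0 they were Myh7 (-2.15), Per3 (-1.50), Sh3rf2 (-1.41), Slc7a2 (-1.41), Asb11 (-1.16), Kcnc4 (-1.12), Nos1 (-0.82), Dmd (-0.69), Prkaa2 (-0.64) and Ugp2 (-0.57). The other 25 missed the threshold in at least 1 of those fits, with a highest adjusted p of 0.106. Above 0 these were Col1a1 (3.48), Cilp2 (2.68), Pdk4 (1.71), Sparc (1.55), Pcolce (1.35), Aldh18a1 (1.31), Amd2 (1.21), Cx3cl1 (1.16), Col4a1 (1.03), Cpt1a (0.96), Timp2 (0.92), Col4a2 (0.82), Nid2 (0.81), Myoz3 (0.77) and Fdps (0.42). Below 0 they were Scn3b (-1.28), Rora (-0.93), Gstm2 (-0.81), Gyg (-0.69), Ppard (-0.59), Rapsn (-0.56), Dtna (-0.55), Eif5 (-0.46), Mmut (-0.45) and Psma6 (-0.32).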

How the results depend on the processing

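The 1475 genes changed in young muscle were 1474 and 1484 with pseudocounts of 0.5 and 10, 1419 without a filter, 1462 with a mean of at least 50, 1543 after quantile normalisation (640 rising, 903 falling), 1475 after trimmed-mean rescaling and 1431 with robust moderation. Library weights gave 3421, the tendon score 0 (limma, 1351 at an unadjusted p under 0.05), the clock score 137, removal of young lean 3 with young obese 3 521, removal of young lean 1 with young obese 2 3396, and the 2 young groups alone 182. Without 1 young library the range was 673 (young lean 2) to 2695 (young lean 1). For the 398 genes whose diet effect differed between ages, the same settings in this order gave 399, 403, 347, 454, 376, 408, 365, 2494, 0 (limma, 1534 at an unadjusted p under 0.05), 5, 134 and 2694, and 112 to 1724 without 1 library. The cause was not tested. Of 95 named genes that passed in young muscle, 86 passed in all 9 fits without 1 library, 94 after quantile normalisation, 40 with the clock score and 45 in the young groups alone. With the tendon score 93 kept their sign and 79 were at an unadjusted p under 0.05. Signs turned in young muscle for Adipoq with the clock score (-0.18), for Chad (-0.083) and Fmod (-0.076) with the tendon score, and for Fbxo32 with the clock score (0.70), after removal of young lean 3 with young obese 3 (0.26) and in 3 fits without 1 library (-0.77 to 0.54 over all 9). For differences between ages they turned for Acot1 (-0.15), Cat (-0.026) and Ech1 (-0.38) with the clock score, for Ech1 (-0.32) and Tnmd (-0.24) with the tendon score, and for Ech1 without young lean 4 or young obese 1 (-0.073 to 0.18 over all 9 fits). No paired analysis was possible because the library numbers in the labels run on through the series and no number is shared between groups. With 4 and 5 libraries and a lean group that varies widely, genes of small change may have been missed.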

Other observations

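Gene groups outside the comparisons above moved at single members. Of 23 genes of the integrated stress response, the programme that cells start when amino acids or folding run short, 3 rose and 1 fell, with 0 falls in 7 of the 9 fits without 1 library. Nupr1, a small stress-induced chromatin protein, stood at 55.5, 40.7, 86.6 and 71.9 units in lean and at 134, 109, 174, 229 and 119 in obese young muscle, without overlap (log2 1.25, SE 0.26, adjusted p = 0.00782). With the tendon score it was at 0.56. Aldh18a1, which makes proline from glutamate, rose by 0.93 (SE 0.20), while Prodh, which starts proline breakdown, fell. Of 33 antioxidant targets of NRF2 2 rose and 3 fell, beside 5.7% and 5.33% of all tested genes. There were 6 falls without young lean 1 and 1 without young lean 4. Gstm2, a glutathione transferase, went from 824, 1082, 1068 and 1201 to 580.3, 803, 745, 551 and 568 (log2 -0.69, SE 0.14, adjusted p = 0.00682).

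Of 27 genes known to respond to glucocorticoids 3 rose and 0 fell, but 6 fell without young lean 1. Besides Pdk4 and Angptl4, which PPARs also drive, this was Dusp1, a phosphatase of stress kinases. It stood at 1080.3, 1074, 914 and 1048 against 1375, 1644, 1605, 1451 and 1589 (log2 0.57, SE 0.08, adjusted p = 0.00103). In calcium handling Tmem38b, a channel of the sarcoplasmic reticulum that balances calcium release, fell by 0.64 (SE 0.11) as 1 of 2 changed genes among 32. Without young lean 1 3 rose and 4 fell there, without young lean 2 3 rose, and without young obese 2 3 fell. The rises there were 0 without young lean 3, young lean 4, young obese 1, young obese 3, young obese 4 or young obese 5. Fdps, of the cholesterol pathway, rose by 0.36 (SE 0.08) in a list of 24 with 1 rise and 1 fall. That list had 3 rises without young lean 4. Its falls were 2 without young lean 1. They were 0 without young lean 2, young lean 3, young lean 4, young obese 1, young obese 3 or young obese 5. Gbp10, a guanylate-binding protein induced by interferon, rose 3.98-fold (log2 1.99, SE 0.46, adjusted p = 0.0118), with young obese 2 at 889 and the other obese libraries at 165 to 216. Sh3rf2, a scaffold with a RING domain, fell by 1.17 (SE 0.21). Ribosomal proteins changed no more often than all genes, of which 5.7% rose and 5.33% fell. Of 82 cytosolic ones 1 rose and 4 fell, with 0 falls without young lean 2 and 1 without young lean 3 or young obese 1. Of 79 mitochondrial ones 2 rose and 0 fell, with 7 rises without young lean 1 and 0 without young lean 2.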
